A study of Rattus norvegicus with 48 samples.

Results

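The carriers described here are 8 genes of the solute carrier (SLC) families that move amino acids or taurine across membranes, namely Slc1a1, Slc1a4, Slc38a2, Slc38a3, Slc38a5, Slc7a8, Slc43a2 and Slc6a6. They were chosen by symbol from a list of transporters that the study had found to differ in these same samples, so their differences between the groups were used to choose them and are given below as a description, without a test. Of 32624 listed features, 13050 were read in every one of the 12 samples, and all 8 carriers were among them. They were measured in cerebral endothelial cells (CECs) sorted from the cortex of male Wistar-Han rats. AL rats were fed ad libitum, and F1, F2 and F3 rats had food withdrawn for 1, 2 or 3 days before sacrifice, with free access to water in all groups. The age of the rats was not given in the sources used here, and no transgene or test drug was part of these groups. Before dissection, rats were anesthetized with diazepam and ketamine and perfused with cold buffer that held heparin. Each isolation used 4 rats, and tissue from 2 cortices was pooled before digestion. Microglia were removed on CD11b and endothelial cells were kept on CD31. The 3 samples of a group, called i, j and k here, came from independent experiments. Each sample had 4 technical replicates, which were summed. A sample held between 20718644 and 25960874 assigned reads.

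CECs form the blood-brain barrier, where amino acids cross by carriers and hardly by diffusion between the cells. Exchangers and facilitated carriers for large neutral amino acids serve entry from the blood, whereas sodium-dependent carriers use the sodium gradient to take up glutamate, glutamine, small neutral amino acids or taurine, in part out of the fluid on the brain side. Carriers of 1 family share sequence and mechanism but can differ in substrate, in the ion that they move with and in the face of the cell on which they lie.

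Levels are given as normalized counts, which are reads scaled to the mean library size by the TMM method, and they were compared between groups and not between genes because transcript lengths were not used. The Log2 fold change (LFC) and its standard error (SE) come from 1 edgeR quasi-likelihood model of the 12 samples. A gene is called where the Benjamini-Hochberg adjusted p-value over all 13050 features is at most 0.05. Bulk RNA cannot tell apart fewer cells of a type and less RNA per cell. Technical replicate d of F1 sample k carries conflicting labels, F1 in its title and 2 days of fasting in its treatment, and was kept with F1. Leaving it out changed no count of the 8 carriers that were called.

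Promoter windows were found for 6 of the 8 carriers in RefSeq (rat build GRCr8, whereas the reads were counted on Rnor_6.0), and not for Slc1a1 and Slc38a3. The 250 bases before the start of 4 genes are shown because they include a pair of carriers of large neutral amino acids whose means lay on opposite sides of AL rats at days 1 and 3, Slc7a8 and Slc43a2, and the genes with a window that had the highest and the lowest LFC at day 3, Slc1a4 and Slc6a6. Capitals mark matches, on either strand, to the motifs described next.
Slc1a4, chr14:98761563-98761812, minus strand: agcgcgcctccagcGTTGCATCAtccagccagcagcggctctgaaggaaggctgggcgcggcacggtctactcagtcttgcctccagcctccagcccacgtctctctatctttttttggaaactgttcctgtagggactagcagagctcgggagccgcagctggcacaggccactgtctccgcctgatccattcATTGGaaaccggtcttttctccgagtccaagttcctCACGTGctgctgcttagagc
Slc7a8, chr15:32212716-32212965, minus strand: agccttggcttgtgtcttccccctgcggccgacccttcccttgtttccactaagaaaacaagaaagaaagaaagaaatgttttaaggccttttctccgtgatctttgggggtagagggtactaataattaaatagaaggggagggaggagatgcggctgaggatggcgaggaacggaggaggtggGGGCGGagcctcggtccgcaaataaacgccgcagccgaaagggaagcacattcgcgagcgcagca
Slc43a2, chr10:60874588-60874837, plus strand: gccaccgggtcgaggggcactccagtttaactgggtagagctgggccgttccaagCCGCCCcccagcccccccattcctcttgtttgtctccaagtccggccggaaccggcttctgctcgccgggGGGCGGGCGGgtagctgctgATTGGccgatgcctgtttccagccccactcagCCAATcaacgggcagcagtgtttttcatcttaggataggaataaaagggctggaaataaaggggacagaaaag
Slc6a6, chr4:125752252-125752501, plus strand: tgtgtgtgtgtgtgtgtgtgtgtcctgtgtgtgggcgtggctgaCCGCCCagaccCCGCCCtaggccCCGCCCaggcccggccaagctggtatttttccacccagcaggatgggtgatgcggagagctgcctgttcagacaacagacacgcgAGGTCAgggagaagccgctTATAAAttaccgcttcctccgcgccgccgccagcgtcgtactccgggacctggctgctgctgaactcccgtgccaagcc

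The motifs searched were the core of the C/EBP-ATF response element (TGATGNAAN), the E-box (CACGTG), the cAMP response element (TGACGTCA), the TATA box (TATAAA), the GC box (GGGCGG), the CCAAT box (CCAAT), the core of nuclear receptor elements (AGGTCA) and the direct repeat of this core with a 1-base spacer. They are present in 3.38%, 5.59%, 1.59%, 12.9%, 30.5%, 34.0%, 14.1% and 0.0508% of all 33469 windows of 250 bases, in the same order. Slc1a4 held a C/EBP-ATF core, an E-box and a CCAAT box, which begin at -236, -20 and -56 relative to the start. Slc6a6 held 3 GC boxes, a nuclear receptor core at -98 and a TATA box at -79. Slc43a2 held 3 GC boxes, of which 2 overlap each other, and 2 CCAAT boxes, and Slc7a8 and Slc38a2 held 1 GC box each. Slc38a5 held none of these letters in its window. The cAMP response element and the direct repeat were in none of the 6 windows. The share of G and C was 47.2% in the window of Slc38a5, 53.6% for Slc7a8, 58.8% for Slc1a4, 60.0% for Slc43a2, 64.0% for Slc6a6 and 72.4% for Slc38a2, against a median of 51.2% over all windows. No motif was found in all 6 windows.

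At day 1, 4 of the 8 carriers were called (Slc1a1, Slc1a4 and Slc38a3 higher, Slc38a5 lower), against 6.57% of all features. At day 2, 0 of 8 were called with edgeR, against 0.92% of all features. DESeq2's Wald test called Slc6a6 at day 2 (2.92% of the features to which it gave an adjusted p). So did edgeR with no filter (1.04%), with the letter i, j or k as a block (0.95%) and without F2 sample k (0.70%). At day 3, 7 of 8 were called (Slc1a1, Slc1a4 and Slc38a3 higher, Slc38a2, Slc38a5, Slc43a2 and Slc6a6 lower), against 12% of all features. Slc7a8 was not called on any day in this model, but at day 3 it was called by DESeq2's Wald test, by edgeR with no filter or with filterByExpr, and without AL sample j or F2 sample j, and at day 1 it was called without AL sample j. DESeq2's Wald test also called Slc43a2 and Slc6a6 at day 1, 6 carriers in all (10.8% of the features to which it gave an adjusted p). The call of Slc38a2 at day 3 was lost with DESeq2's size factors and with filterByExpr. It was also lost without any single AL or F3 sample, and without F1 sample j, F2 sample i or F2 sample k. Because the carriers were selected for such differences, nothing is read from these counts. By the plain criterion that the 3 fasted and the 3 AL samples did not overlap, 7 carriers were separate at day 1, 3 at day 2 and 7 at day 3, where 28.7%, 15.5% and 35.6% of all features were. The median LFC over the 8 carriers was 0.02, 0.09 and -0.02 at days 1, 2 and 3, and over all features it was 0.00, -0.01 and -0.01. At days 1 and 3 the median of the carriers fell between 4 higher and 4 lower means. It therefore does not measure whether the sizes of the rises and falls balanced. The plot of the carriers by sample shows these values.

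**Figure D1:**
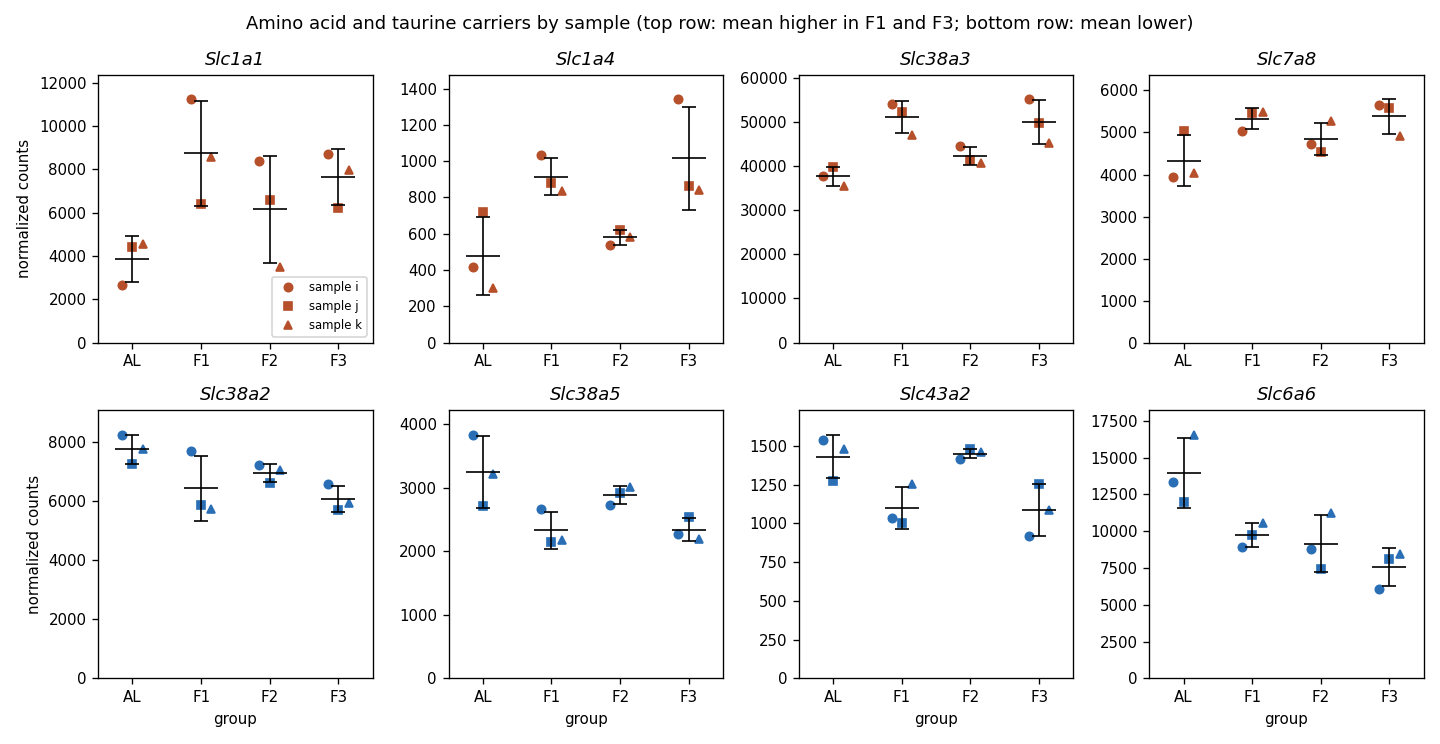
Normalized counts of the 8 carriers in each of the 12 samples, by group (AL, F1, F2 and F3, with 3 samples each). Circles, squares and triangles are samples i, j and k, and the bars are the mean and SD. The F1 and F3 means of the genes in the top row lie above the AL mean and those of the genes in the bottom row lie below it.

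Slc1a1 (ENSRNOG00000014816) encodes EAAT3, a sodium-dependent carrier of glutamate and aspartate that also takes up cysteine. It had 2656, 4402 and 4549 normalized counts in AL samples i, j and k, and 11233, 6409 and 8571 in F1 samples. F2 samples had 8397, 6560 and 3507, and F3 samples had 8723, 6232 and 7974. All F1 and F3 samples lay above all AL samples, and of the F2 samples i and j did, while F2 sample k lay between AL samples. The LFC was 1.18 (SE 0.29) at day 1, 0.67 (0.29) at day 2 and 0.98 (0.29) at day 3, which is 2.26-fold, 1.59-fold and 1.98-fold. With all samples it was the highest LFC of the 8 carriers at days 1 and 2 (without AL sample j, Slc1a4 was higher at day 1, with 1.34 against 1.27), and it came with a wide spread between samples of the same group (coefficient of variation 16.7% to 40.1%). Without F2 sample i the LFC at day 2 was 0.38.

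Slc1a4 encodes ASCT1, an exchanger of alanine, serine and cysteine in the same family, which supplies L-serine to the brain. Normalized counts were 414, 719 and 302 in AL samples, 1032, 881 and 833 in F1 samples, 536, 619 and 584 in F2 samples, and 1342, 863 and 843 in F3 samples. F1 and F3 samples lay above every AL sample and above every F2 sample, and the F2 samples lay within the range of AL samples. The LFC was 0.93 (SE 0.25), 0.28 (0.25) and 1.08 (0.25), or 1.91-fold, 1.21-fold and 2.12-fold. The AL mean rested on unequal samples, with 479 ± 216 (SD, n = 3). Without AL sample j the LFC was 1.34, 0.69 and 1.49 at days 1, 2 and 3, and without AL sample k it was 0.04 at day 2. Both Slc1 genes were therefore higher in F1 and F3 rats, and Slc1a4 was nearer to AL rats at day 2 than Slc1a1. The difference between the genes was not tested.

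Slc38a3 (ENSRNOG00000016827) encodes SNAT3, a system N carrier that moves glutamine, histidine and asparagine with sodium in exchange for protons and can run in both directions. AL samples had 37630, 39877 and 35565 normalized counts, F1 samples 54059, 52335 and 47090, F2 samples 44598, 41425 and 40765, and F3 samples 55142, 49801 and 45177. The groups formed separate steps, since every F2 sample lay above every AL sample and below every F1 and F3 sample, while F1 and F3 samples overlapped. The LFC was 0.44 (SE 0.09), 0.17 (0.09) and 0.41 (0.09) at days 1, 2 and 3, or 35.7%, 12.1% and 32.8% above AL rats. Its samples agreed closely within groups, with a coefficient of variation of 4.85% to 9.97%, and over all alternatives the LFC at day 1 stayed between 0.38 and 0.50.

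Slc38a5 encodes SNAT5, the other system N carrier of the list, with glutamine, serine and glycine among its substrates. Normalized counts were 3831, 2708 and 3210 in AL samples, 2663, 2141 and 2174 in F1 samples, 2732, 2921 and 3012 in F2 samples, and 2275, 2545 and 2194 in F3 samples. F1 and F3 samples lay below all AL and all F2 samples, and F2 samples lay within the AL range. The LFC was -0.48 (SE 0.12), -0.17 (0.12) and -0.48 (0.12), which is 0.716, 0.889 and 0.719 times the level of AL rats. AL sample i was the highest of the 12, and without it the LFC was -0.35 at day 1, -0.03 at day 2 and -0.34 at day 3.

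Slc38a2 encodes SNAT2, a system A carrier of small neutral amino acids that is known to be induced when amino acids are scarce. AL samples had 8248, 7257 and 7783 normalized counts, F1 samples 7719, 5868 and 5738, F2 samples 7220, 6623 and 7055, and F3 samples 6580, 5714 and 5951. F2 and F3 samples lay below every AL sample, F3 samples also lay below every F2 sample, and F1 sample i alone of its group reached into the AL range. The LFC was -0.27 (SE 0.11), -0.16 (0.11) and -0.35 (0.11) at days 1, 2 and 3. Without F1 sample i it was -0.42 at day 1.

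Within the Slc38 family the means of Slc38a3 and of Slc38a5 and Slc38a2 thus lay on opposite sides of AL rats. The ratio of Slc38a3 to Slc38a5 within a sample, whose size depends on the lengths of both transcripts but whose change between groups does not, was 9.82, 14.7 and 11.1 in AL samples, 20.3, 24.4 and 21.7 in F1 samples, 16.3, 14.2 and 13.5 in F2 samples, and 24.2, 19.6 and 20.6 in F3 samples. All F1 and F3 samples lay above all AL and F2 samples, and F2 samples overlapped with AL samples. The mean ratio was 1.86 times that of AL rats at day 1, 1.24 times at day 2 and 1.81 times at day 3. The ratio of Slc38a3 to Slc38a2 averaged 4.88 ± 0.54 for AL, 8.04 ± 0.97 for F1, 6.07 ± 0.26 for F2 and 8.23 ± 0.58 for F3 (SD, n = 3), and here F2 samples lay above all AL samples and below all F1 and F3 samples. The ratio of Slc38a5 to Slc38a2, both lower in fasted rats, averaged 0.417 ± 0.0458 for AL and 0.387 ± 0.0522 for F3 (SD, n = 3), and these groups overlapped. These ratios contain the differences on which the genes were chosen and were not tested.

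Slc7a8 (ENSRNOG00000014311) encodes LAT2, a light chain that joins the heavy chain encoded by Slc3a2 to exchange large and small neutral amino acids. AL samples had 3934, 5028 and 4027 normalized counts, F1 samples 5035, 5457 and 5494, F2 samples 4721, 4543 and 5276, and F3 samples 5647, 5592 and 4911. F1 samples lay above all AL samples, by 7 normalized counts for the nearest pair, and F2 and F3 samples overlapped with AL sample j. The LFC was 0.30 (SE 0.10), 0.16 (0.10) and 0.31 (0.10), the lowest at days 1 and 3 among the 4 carriers with higher means. Without AL sample j the LFC was 0.41 at day 1 and 0.43 at day 3.

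Slc43a2 encodes LAT4, which lets leucine, isoleucine, methionine and phenylalanine through by facilitated diffusion. Normalized counts were 1538, 1273 and 1483 in AL samples, 1036, 1004 and 1252 in F1 samples, 1416, 1478 and 1458 in F2 samples, and 917, 1253 and 1085 in F3 samples. F1 and F3 samples lay below all AL and F2 samples, and the F2 samples lay inside the AL range. The LFC was -0.38 (SE 0.12), 0.02 (0.11) and -0.40 (0.12) on the 3 days. The value at day 2 was smaller than its SE and turned to -0.02 with counts scaled by totals only and to -0.06 without AL sample j. The ratio of Slc7a8 to Slc43a2 within a sample averaged 3.07 ± 0.76 for AL, 4.90 ± 0.52 for F1, 3.34 ± 0.27 for F2 and 5.05 ± 0.96 for F3 (SD, n = 3). F1 and F3 samples lay above all AL samples, and F2 samples overlapped with AL samples. These carriers belong to different families and share large neutral amino acids as substrates. The plot of ratios by sample shows the 3 pairs.

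**Figure D2:**
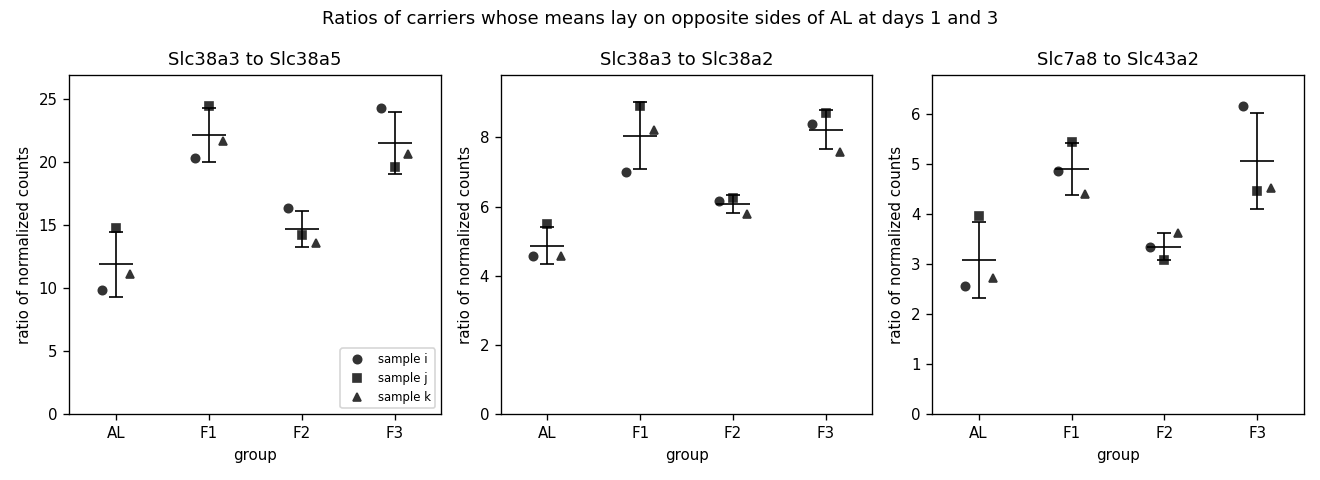
Ratio of the normalized counts of Slc38a3 to Slc38a5, of Slc38a3 to Slc38a2 and of Slc7a8 to Slc43a2 in each sample, by group, with the mean and SD of 3 samples as bars. In all 3 panels the F1 and F3 samples lie above the AL and F2 samples, and the size of a ratio also depends on the lengths of both transcripts.

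Slc6a6 (ENSRNOG00000009019) encodes TAUT, the sodium- and chloride-dependent carrier of taurine and beta-alanine. AL samples had 13348, 11985 and 16560 normalized counts, F1 samples 8942, 9772 and 10529, F2 samples 8764, 7441 and 11243, and F3 samples 6083, 8137 and 8456. Every fasted sample of each day lay below every AL sample, and every F3 sample lay below every F1 sample, while F2 samples overlapped with both other fasts. The LFC was -0.52 (SE 0.16), -0.61 (0.16) and -0.89 (0.16), which is 0.698, 0.655 and 0.541 times the level of AL rats at days 1, 2 and 3. It was the lowest LFC of the 8 carriers on each day with all samples, but at day 1 that of Slc38a5 was lower without AL sample k (-0.50 against -0.38) and without F1 sample i (-0.59 against -0.46). Over all alternatives it stayed between -0.62 and -0.38 at day 1, between -0.79 and -0.47 at day 2 and between -0.99 and -0.75 at day 3.

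Between days, F2 against F1 rats called 0 of the 8 carriers with edgeR, against 1.34% of all features. DESeq2's Wald test called Slc43a2 there (5.34% of the features to which it gave an adjusted p). With edgeR, F3 against F2 rats called 1, Slc43a2, against 5.88% of all features. The samples of both days did not overlap for 4 carriers from day 1 to day 2 (Slc1a4, Slc38a3, Slc38a5 and Slc43a2) and for 5 from day 2 to day 3 (the same 4 and Slc38a2), where 21.8% and 26.8% of all features did not overlap. The call of Slc43a2 from day 2 to day 3 was kept without AL sample j, without F1 sample k and without F3 sample j. It was lost without any single one of the other 9 samples. It was also lost with total counts, with filterByExpr, with the letter as a block and in the fit of the 6 samples compared. For Slc43a2 the LFC was 0.40 (SE 0.12) from day 1 to day 2 and -0.42 (0.11) from day 2 to day 3. For Slc1a4 it was -0.66 (0.25) and 0.81 (0.25), for Slc38a3 -0.28 (0.09) and 0.24 (0.09), and for Slc38a5 0.31 (0.12) and -0.31 (0.12). For these 4 genes the step between days 2 and 3 thus had the opposite sign of the step between days 1 and 2. For Slc6a6 it was -0.09 (0.16) and then -0.28 (0.16), but without F2 sample j it was 0.04 and -0.40, so that the absence of a turn rested on that sample. F3 and F1 samples overlapped for the other 7 carriers. The days share the F2 samples and the choice of genes rested on these samples, so these values are a description. The plot of LFC by day shows the turn.

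**Figure D3:**
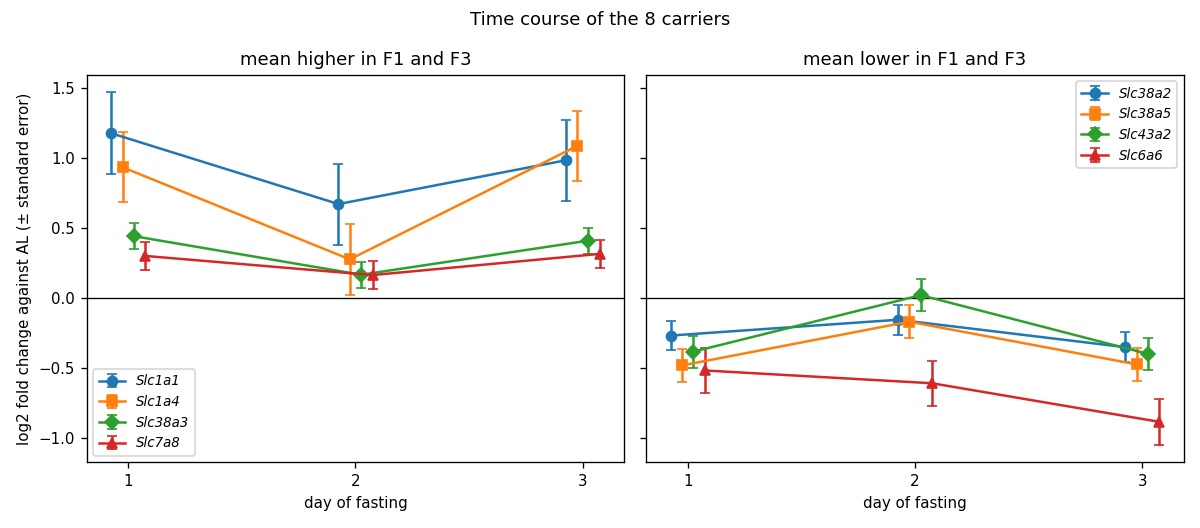
LFC against AL rats at days 1, 2 and 3 of fasting, with the SE of the edgeR model as bars, for the 4 carriers with higher means (left) and the 4 with lower means (right) in F1 and F3 rats. All 3 days share the AL samples, and 7 of the 8 lines come nearer to 0 at day 2, with Slc6a6 as the exception (without F2 sample j its LFC is -0.52 at day 1 and -0.48 at day 2).

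The size of the LFC at day 2 was set against the mean of days 1 and 3. It was -4.93% of that mean for Slc43a2, 27.3% for Slc1a4, 35.5% for Slc38a5 and 38.9% for Slc38a3. It was 50.3% for Slc38a2, 53.0% for Slc7a8, 62.1% for Slc1a1 and 86.9% for Slc6a6. The median of the 8 carriers was 44.6%, beside 45.1% (quartiles 23.3% and 66.3%) for the 762 features that were called in the same direction at days 1 and 3. A choice by days 1 and 3 favours large values on those days, so a share under 100% carries no test here. With all samples, Slc43a2 lay below the lower and Slc6a6 above the upper quartile. Neither was called at day 1 in this model, so they are not among the 762 features, and nor are Slc38a2 and Slc7a8. The carriers that are, Slc1a1, Slc1a4, Slc38a3 and Slc38a5, all lay between the quartiles. The shares of Slc1a4 and Slc38a5 depended on single AL samples. Without AL sample k the LFC of Slc1a4 was 0.69, 0.04 and 0.85 for F1, F2 and F3, and without AL sample i that of Slc38a5 was -0.35, -0.03 and -0.34. The share of Slc1a1 depended on single F2 samples. Its LFC at day 2 was 0.38 without F2 sample i and 0.95 without F2 sample k.

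**Figure D4:**
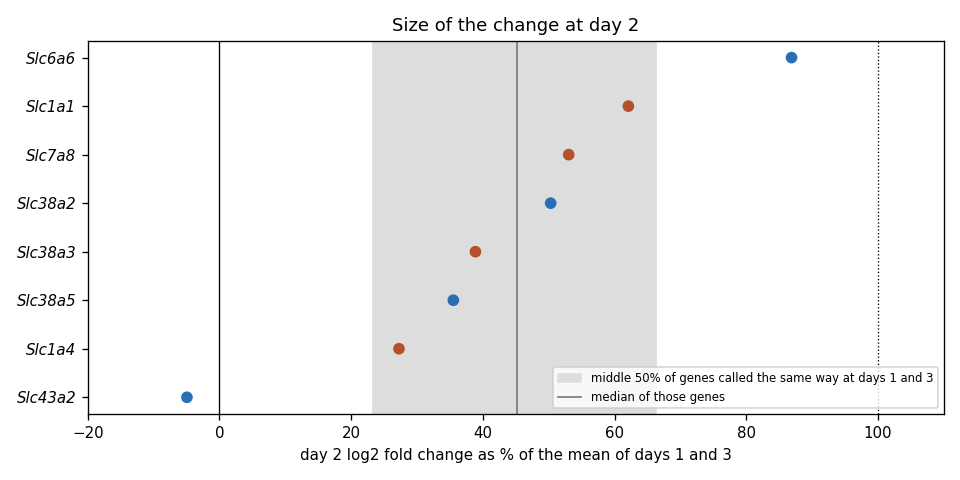
LFC at day 2 as a percentage of the mean LFC of days 1 and 3 for each carrier, in red for higher and in blue for lower means. The grey band holds the middle 50% of the 762 features called in the same direction at days 1 and 3, and the grey line is their median of 45.1%. Slc43a2 and Slc6a6 lie outside the band, but neither was called at day 1, so they are not among those features.

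Across the 12 samples, with counts scaled by library size and taken as log2 CPM (prior count 2), Slc1a4 and Slc38a3 were the pair of carriers with the highest Pearson r (0.905), followed by Slc1a4 and Slc7a8 (0.848) and by Slc38a2 and Slc38a5 (0.823). The lowest was that of Slc1a4 and Slc43a2 (-0.867). The samples share the groups on which the genes were chosen, so r is given again for the deviations from the group means, where it was 0.685, 0.621, 0.595 and -0.679 for these 4 pairs. For Slc38a3 and Slc38a5, r was -0.750 over the samples and -0.00 for the deviations. The inverse relation of Slc1a4 and Slc43a2 was thus also present among samples of the same group, and that of Slc38a3 and Slc38a5 was not seen there. The deviations were more inverse for Slc1a4 and Slc6a6 (-0.734), Slc38a3 and Slc6a6 (-0.717) and Slc38a3 and Slc43a2 (-0.688). For Slc38a2 and Slc38a3, r was -0.531 over the samples and 0.459 for the deviations. With few samples per group these values are imprecise, and none was tested.

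Each carrier was also compared with the 582 features that had a symbol here and a mean of at least 1000 normalized counts, most of them with symbols early in the alphabet. The 2 genes with the highest r were Acadm (0.856), an acyl-CoA dehydrogenase, and Adgrg1 (0.855), an adhesion receptor, for Slc1a1. For Slc1a4 they were Acer2 (0.925), an alkaline ceramidase, and Slc38a3. For Slc38a3 they were Anks1a (0.954), an adaptor protein, and again Acer2 (0.945). For Slc7a8 they were Bcor (0.880), a transcriptional corepressor, and Adgrl4 (0.854), an endothelial adhesion receptor. Among the lower carriers, Slc38a5 was nearest to Slco1a4 (0.920), an organic anion carrier, and Slc16a4 (0.907), a member of the monocarboxylate carrier family. Slc38a2 was nearest to Abcd3 (0.930), a peroxisomal transporter, and Atp6v1h (0.847), a subunit of the proton pump V-ATPase. Slc43a2 was nearest to Acsl3 (0.942) and Acsf2 (0.914), which activate fatty acids, and Slc6a6 to Amot (0.902), angiomotin, and Atp6v0a1 (0.885), another V-ATPase subunit. Each r is over 12 samples in 4 groups that share their libraries and is a description.

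A wider list of amino acid carriers held 69 symbols, of which 10 could be tied to an identifier, the 8 genes above and Slc7a6 and Slc36a1. All 10 came from the study's own list of differing transporters in these samples, so the list is no independent evidence of its direction. Of the 10, 4 were called at day 1 (3 higher and 1 lower, against 6.57% of all features). At day 2, 0 were called with edgeR, against 0.92%. There 4 had an unadjusted p under 0.05, a limit at which the share of all features was not counted. DESeq2's Wald test called 1 at day 2, against 2.92% of the features to which it gave an adjusted p. At day 3, 9 were called with edgeR (5 higher and 4 lower, against 12%). The median LFC over the 10 genes was 0.33, 0.09 and 0.36. Slc7a6, which encodes y+LAT2 and exchanges cationic for neutral amino acids, had 415, 485 and 417 normalized counts in AL samples, 636, 538 and 526 in F1 samples, 583, 469 and 604 in F2 samples and 796, 660 and 530 in F3 samples, with an LFC of 0.59 (SE 0.14) at day 3. Its F1 and F3 samples lay above all AL samples. Slc7a6 and Slc7a8, the genes of the Slc7 family with an identifier, thus both had higher means in fasted rats.

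Slc36a1 encodes PAT1, a proton-coupled carrier of small neutral amino acids found on lysosomes. It had 157, 158 and 170 normalized counts in AL samples, 205, 193 and 236 in F1 samples, 143, 99 and 144 in F2 samples and 249, 227 and 237 in F3 samples. F2 samples lay below every AL sample, and F1 and F3 samples lay above every AL sample. The LFC against AL rats was 0.39 (SE 0.14), -0.33 (0.15) and 0.55 (0.14), and it was called at day 3. From day 1 to day 2 the LFC was -0.72 (0.15) and from day 2 to day 3 it was 0.88 (0.15), and edgeR called both steps. The call from day 1 to day 2 was lost without any single F1 or F3 sample and without F2 samples j and k.

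Of 13 genes on a list of taurine transport and synthesis, 3 had an identifier, Slc6a6, Slc36a1 and Ado. Ado, which encodes an enzyme that makes hypotaurine from cysteamine, is the one that was not chosen for a difference. It had 92, 88 and 64 normalized counts in AL samples, 93, 102 and 89 in F1 samples, 79, 86 and 81 in F2 samples and 73, 92 and 95 in F3 samples. The groups overlapped with AL on each day, and with edgeR's quasi-likelihood test Ado did not pass the threshold (LFC 0.21 with SE 0.17 and adjusted p = 0.522 for F1, LFC 0.01 with SE 0.17 and adjusted p = 0.995 for F2, and LFC 0.09 with SE 0.17 and adjusted p = 0.802 for F3). Its level of 58 to 100 reads per sample gives little precision.

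The counts of called carriers depended on single samples, and so did the share of all features tested in a fit that were called, 6.57% at day 1 and 12% at day 3 with all samples. At day 1, with 4 carriers called, the omission of AL sample i left 1, Slc38a3 (2.94% of all features). That of AL sample k left 0 (3.21% of all features). Without AL sample k, 9 of the wider list of 10 had an unadjusted p under 0.05. The share of all features under that limit was not counted. The omission of F1 sample i, j or k left 2, 1 and 2 (3.30%, 2.32% and 4.21%), and that of F2 sample j, which belongs to neither group compared, gave 6 (11.2%). At day 3, with 7 called, the omission of AL sample i left 2 (7.52%), of AL sample k 3 (8.09%), of F3 sample i 1, Slc6a6 (5.99%), and of F3 sample k 3 (7.20%). The directions at days 1 and 3 were the same in every alternative for all 8 carriers.

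Markers of other cells were also read. Of 5 pericyte markers, 2 had an identifier, Abcc9 and Anpep, and their sum ranged from 1762 to 4161 normalized counts in AL samples, from 1846 to 2098 in F1, from 2186 to 4509 in F2 and from 1473 to 4143 in F3. AL sample i had the highest sum in its group, and it also had the lowest Slc1a1 and the highest Slc38a5 there. The same held for F2 sample k within F2. F3 sample i had the highest sum of F3 but also the highest Slc1a1 of F3, and its Slc38a5 lay between those of the other F3 samples. In F1 the highest sum was in sample k, where both genes lay between the other F1 samples. Of 5 astrocyte markers, 1 had an identifier, Aldoc, with 1825 to 2155 in AL, 1702 to 2277 in F1, 1530 to 2239 in F2 and 1545 to 1588 in F3 samples, so that it was lower in all F3 than in all AL samples. Slc38a3, Slc1a4 and Slc6a6 are also expressed by astrocytes and Slc1a1 by neurons, and none of 4 neuronal markers had an identifier. The paper reports a high purity of these cells by CD31 staining and flow cytometry. It also reports that RNA specific to glia, neurons and mural cells was very low or not detected. Acta2, of 3 smooth muscle markers, had 130 to 211 in AL, 126 to 267 in F1, 236 to 366 in F2 and 153 to 300 in F3 samples, so that all F2 samples lay above all AL samples. The sum of C1qa, C1qb and C1qc, of 6 microglial markers, ranged from 29 to 103 over the 12 samples and Alas2, of 2 red blood cell markers, from 36 to 110, and none of 3 oligodendrocyte and 3 fibroblast markers had an identifier. Of 6 endothelial markers, Pecam1, Slc2a1 and Abcb1a had one. Pecam1, which encodes CD31, had 31655, 35586 and 32024 normalized counts in AL samples, 36433, 38791 and 35876 in F1, 31872, 32294 and 32172 in F2, and 33981, 33083 and 34609 in F3 samples, with F1 samples above all AL samples. Slc2a1, the glucose carrier GLUT1, had 257320 to 309123 in AL samples and 355198 to 416026 in fasted samples, which all lay above AL. Abcb1a, which encodes an efflux pump, had 67163 to 82601 over the 12 samples, and each fasted group overlapped with AL. The part of these markers in the differences of the carriers was not tested.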

How the data were processed

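RNA was measured in CECs of AL, F1, F2 and F3 rats, with 3 samples per group in 48 files. Reads had been trimmed, filtered and mapped with STAR to Rnor_6.0 (Ensembl annotation) by the authors, who dropped reads with several matches and counted the rest on exons with HTSeq 0.5.3. The deposited values are raw counts per gene, without normalization. Genes with close copies may have lost reads in this way, and the strand setting of the counting was not given in the sources used here.

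The 4 technical replicates of a sample were summed (20718644 to 25960874 assigned reads). Over the 8 carriers they differed with a chi-square of 0.554 to 1.69 per degree of freedom. Samples were grouped by their labels. The 13050 features read in every sample were tested in R 4.3.3 with edgeR 4.0.16 (TMM, quasi-likelihood test, 1 model of 4 group means). P-values were adjusted over all features by Benjamini-Hochberg, with a threshold of 0.05, after a trial of the script on simulated data. Symbols, for 2043 features, came from the supplementary tables, except that of Pecam1, which was taken from the name of its feature in the counts. The authors' own fold changes and p-values in the supplementary tables were not used.

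The 8 carriers and the lists were chosen with earlier results of these data known. Named are the 8 carriers, called genes of the lists, and the 2 genes most like each carrier. Alternatives changed the scaling (DESeq2's size factors or totals), the tool (Wald test of DESeq2 1.42.0), the filter (none, or filterByExpr of edgeR), the threshold (0.01) and the samples. The last were a fit of the 6 samples compared, the letter as a block, 1 sample omitted per fit, and omission of the technical replicate with conflicting labels. Promoter sequence is RefSeq's, build GRCr8, of which 250 bases before the start were read.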

Additional observations from a re-analysis of the deposited data

Results flagged for a closer look

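Steps between days that passed edgeR's threshold were found for 2 carriers. Slc36a1 had an LFC of -0.72 from day 1 to day 2 and of 0.88 from day 2 to day 3. Slc43a2 had an LFC of -0.42 from day 2 to day 3, and its call was lost in several of the alternatives given above. Both genes came from a list chosen on these samples, and no explanation was tested.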

How the results depend on the processing

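The 8 carriers gave 800 LFC values under the alternatives, of which 795 moved by less than the spread between samples and 5 by more. Many fits left out a sample of a group not compared, and omitting 1 of 3 samples moves a mean by only part of that spread. The 795 values are therefore no test of robustness. No called direction turned, but uncalled ones did. Slc43a2 at day 2 turned to -0.02 with total counts and -0.06 without AL sample j. Slc6a6 in F2 against F1 rats turned to 0.04 without F2 sample j. In the list of 10 carriers the calls were fewer or more as follows. At day 1, where 4 were called, total counts and DESeq2's Wald test called 6 each and the model without a filter 5. The model of the 6 samples compared called 3. In the same order, 7.56%, 10.8%, 4.65% and 7.38% of the features with an adjusted p were called. The share was 6.57% in the edgeR model of all samples that is used above. At an adjusted p of at most 0.01, 0 were called at day 1 (1.95% of all features) and 1 at day 3 (5.17%). At this limit, 0 were called in F2 against F1 rats (0.0307%) and 1 in F3 against F2 rats (0.996%). At day 2, where 0 were called (0.92% of all features), DESeq2's Wald test and the model without a filter called 1 each (2.92% and 1.04%). For F2 against F1 rats, where 1 was called (1.34% of all features), DESeq2's Wald test called 2 (5.34%). The model of the 6 samples compared called 0 (0.269%), with 5 of the 10 at an unadjusted p under 0.05. For F3 against F2 rats, where 2 were called (5.88% of all features), total counts, filterByExpr and the model of the 6 samples compared called 1 each. Their shares of all features were 5.78%, 6.85% and 1.56%. With 1 sample left out, the counts ranged from 0 to 7 at day 1 (4 with all samples) and from 0 to 1 at day 2. They ranged from 1 to 10 at day 3 (9 with all samples), from 0 to 1 for F2 against F1 and from 1 to 3 for F3 against F2. In these fits the share of all features called ranged from 2.32% to 11.2%, from 0.290% to 1.18% and from 5.99% to 18.2% at days 1, 2 and 3. It ranged from 0% to 1.38% for F2 against F1 and from 1.11% to 5.72% for F3 against F2. At day 1 the extremes were 0 without AL sample k (3.21% of all features) and 7 without F2 sample j (11.2%). Without AL sample k, 9 of the 10 had an unadjusted p under 0.05. The share of all features under that unadjusted limit was not counted in any fit. At day 3 the extremes were 1 without F3 sample i (5.99%) and 10 without F2 sample j (18.2%).

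The 18 pairs with the same letter had correlations of deviations from the group means of -0.017 to 0.139, most of them above 0 and 2 above 0.1. Pairs with different letters ranged from -0.193 to 0.204. These values neither show nor exclude that the letters pair the samples. With the letter as a replicate block, 4 carriers of the wider list were called at day 1 (5.73% of all features). At day 2, 1 was called (0.95%), and at day 3 the count was 8 (11.5%). In F2 against F1 rats 1 was called (0.78%), and in F3 against F2 rats 1 (5.30%). Under the block Slc1a1 was called at neither day 1 nor day 3, and Slc6a6 was called at day 1 and day 2. The cause of these changes was not tested. Depth limits Ado and Slc36a1 most, which had 58 to 100 and 100 to 268 reads per sample.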
